A study of Mus musculus with 4 samples.

Results

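The genes described here encode the proteins of the mitochondrial ribosome. They were chosen by name alone, as every row of the deposited table whose symbol is Mrpl or Mrps followed by a number and at most 1 letter, which gave 77 genes out of 36445. Of these, 48 are Mrpl genes, named for the large subunit, and 29 are Mrps genes, named for the small subunit. All 77 are protein-coding and lie on 17 chromosomes, with 11 on chromosome 11 and 8 on chromosome 17. They were measured in MC38, a mouse colon cancer line, that had received PBS (2 libraries) or 5-fluorouracil (5-FU, 1 mM, 2 libraries) for 24 h, by RNA sequencing after polyA selection. 5-FU is a chemotherapy drug, a uracil analogue that interferes with thymidine synthesis and is built into nucleic acids. The comparison asks which transcripts differ after 5-FU. All groups share the cell line and the culture medium, and no animals, transgenes or other agents are named in the labels.

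The mitochondrial ribosome translates the few messenger RNAs of the mitochondrial genome, which encode core subunits of the respiratory chain and of ATP synthase. Its ribosomal RNAs come from the mitochondrial genome, whereas all of its proteins are encoded in the nucleus, made in the cytosol and imported. Some of the proteins have bacterial counterparts, and others are particular to mitochondria. The promoters of nuclear genes for mitochondrial proteins are known for binding sites of the factors NRF1, GABP (of the ETS family) and YY1.

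Promoter stretches of 6 members are shown because they carry matches to motifs of these 3 factors next to the start of the gene. They come from RefSeq on GRCm38.p6, run 5′ to 3′ from 130 bases before the start through the first 30 bases of the transcript, and were chosen after the values of the members were seen. Capitals mark GCGCA followed by any base and GCGC (NRF1), CCGGAAGT (ETS and GABP) or AAGATGGC (YY1) on either strand, and no 2 of these matches overlap. The stretches lie at chr3:94443206-94443365, plus strand (Mrpl9), chr11:120484507-120484666, plus strand (Mrpl12), chr11:97315586-97315745, plus strand (Mrpl45), chr9:105053138-105053297, plus strand (Mrpl3), chr9:98601650-98601809, minus strand (Mrps22) and chr17:46110874-46111033, plus strand (Mrps18a).
Mrpl9: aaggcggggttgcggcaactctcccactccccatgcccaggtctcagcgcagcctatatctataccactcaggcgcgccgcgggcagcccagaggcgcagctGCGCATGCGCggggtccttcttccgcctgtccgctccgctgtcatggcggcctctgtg
Mrpl12: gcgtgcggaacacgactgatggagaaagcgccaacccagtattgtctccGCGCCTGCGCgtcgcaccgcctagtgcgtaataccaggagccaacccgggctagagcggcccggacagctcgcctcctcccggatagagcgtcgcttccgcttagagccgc
Mrpl45: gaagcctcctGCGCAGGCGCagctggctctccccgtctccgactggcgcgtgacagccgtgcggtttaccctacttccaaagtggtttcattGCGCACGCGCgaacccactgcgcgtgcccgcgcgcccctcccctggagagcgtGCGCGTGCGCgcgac
Mrpl3: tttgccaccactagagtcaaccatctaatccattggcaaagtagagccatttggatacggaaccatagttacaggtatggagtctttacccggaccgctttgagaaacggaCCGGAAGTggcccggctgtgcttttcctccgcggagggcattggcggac
Mrps22: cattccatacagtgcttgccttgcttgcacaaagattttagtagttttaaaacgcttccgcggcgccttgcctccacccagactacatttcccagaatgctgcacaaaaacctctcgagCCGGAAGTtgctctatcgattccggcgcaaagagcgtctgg
Mrps18a: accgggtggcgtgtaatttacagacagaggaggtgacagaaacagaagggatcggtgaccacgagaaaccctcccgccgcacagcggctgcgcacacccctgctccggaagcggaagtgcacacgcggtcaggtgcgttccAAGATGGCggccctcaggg

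In Mrpl9 the NRF1 motif began 28 bases before the start, in Mrpl12 81 bases before it, and Mrpl45 held 3 copies, 2 before the start and 1 that began 15 bases after it. The ETS motif began 19 bases before the start of Mrpl3 and 11 before that of Mrps22, and the YY1 motif began 11 bases after the start of Mrps18a. The promoter table held 68 of the 77 members, in windows of 300 bases (250 before the start and 50 from it). It lists more than 1 window for 3 of them (Mrpl2, Mrpl48 and Mrps16), and a gene was counted where any of its windows held the motif. The NRF1 motif was found for 13 of the 68 members (19.1%), against 5.19% of all 27025 genes in the table and 12.4% of the tested genes in it. The ETS motif was found for 11 (16.2%, against 4.31% and 10.3%) and the YY1 motif for 12 (17.6%, against 3.19% and 5.74%). The E-box CACGTG was found for 5 (7.35%, against 8.09% and 12.2%), and the Sp1 motif GGGCGG for 34 of 68, against 38.2% and 70.9%. A match describes the letters of the window and does not show that a factor binds there.

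All but 1 of the members were measured well above 1 FPKM in MC38 cells. The unit of the table is FPKM, fragments per kilobase of transcript and per unit of library size. At least 4.06 FPKM was reached by 76 members in every library, and the other, Mrpl53, stayed between 0.229 and 1.24 FPKM. The 77 values had medians of 20.1 and 19.1 FPKM in PBS replicates 1 and 2 and of 23.5 and 23.2 FPKM in 5-FU replicates 1 and 2. Summed over all members, the level was 1992 and 1856 FPKM in PBS and 2476 and 2466 FPKM in 5-FU. Both 5-FU sums lay above both PBS sums, for the 48 Mrpl genes (1409 and 1297 FPKM in PBS, 1769 and 1739 in 5-FU) and for the 29 Mrps genes (582.2 and 559.1 in PBS, 707.1 and 726.8 in 5-FU). The same held for the sum over all tested genes, at 341904 and 357483 FPKM in PBS and 387937 and 385703 in 5-FU. Part of the difference between the members' sums is therefore shared with the libraries as a whole, and the sums alone do not show a rise particular to the members. In bulk RNA, changes in a transcript's amount per cell and in the share of cells holding it cannot be told apart.

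The libraries differed in ways that touch these values. Depth, estimated from the steps between low FPKM values, was about 41.3 and 41.6 M reads in PBS and 20.8 and 20.6 M in 5-FU. The PBS libraries were further apart than the 5-FU libraries: over the 77 members the median absolute difference on the log2(FPKM + 1) scale was 0.199 between the PBS libraries and 0.0639 between the 5-FU libraries (0.271 and 0.0729 over all tested genes). PBS replicate 1 was the higher of its pair in 50 members and PBS replicate 2 in 27. The labels call the cells colon cancer, yet all 8 epithelial markers examined (Epcam, Cdh1, Krt8, Krt18, Krt19, Krt20, Cdx2 and Vil1) stayed at or below 0.823 FPKM in every library. Of 8 mesenchymal markers, Vim (889.7 to 1069 FPKM), Fn1 (218.3 to 588.0) and Twist1 (14.7 to 28.6) were high, Cdh2 lay between 5.34 and 5.78 FPKM and Col1a1 and Zeb1 near 1 FPKM, and Acta2 and Col1a2 stayed at or below 0.653 FPKM. Of 6 leukocyte markers, Cd3e was listed at 0 in all 4 libraries and Ptprc at no more than 0.0342 FPKM, while Cd68 lay between 6.29 and 19.3 FPKM and Lyz2 between 1.57 and 3.19 FPKM without passing the test. Of the 6 mesenchymal markers tested, Fn1 and Twist1 were lower in 5-FU and 4 did not pass.

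After 5-FU, 32 of the 77 members rose, 13 fell and 32 did not pass the test. Among all 11644 genes tested, 22.1% rose and 31.2% fell, so the members' balance leaned the other way. Each call is a limma test on log2(FPKM + 1) with a Benjamini-Hochberg adjusted p under 0.05 over all tested genes. The members' median log2 difference was 0.35, against -0.10 over all tested genes. In 50 members both 5-FU libraries lay above both PBS libraries, in 21 both lay below, and in 6 the groups overlapped (Mrpl4, Mrpl14, Mrpl23, Mrps15, Mrps24 and Mrps31). Over all tested genes those shares were 35.9% above and 45.1% below. Most called members changed less than 2-fold: 10 of the 32 risers reached 2-fold, as did 3 of the 13 that fell. Over all 11644 tested genes 11.2% were called higher and 20.6% lower at that size. The 10 include Mrpl53, whose ratio of means was 3.68 at levels near 1 FPKM and whose log2 difference was 0.71. The 32 members that did not pass had log2 differences between -0.38 (Mrpl39) and 0.57 (Mrps26), with both 5-FU libraries above both PBS libraries in 18 and below in 8.

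**Figure D1:**
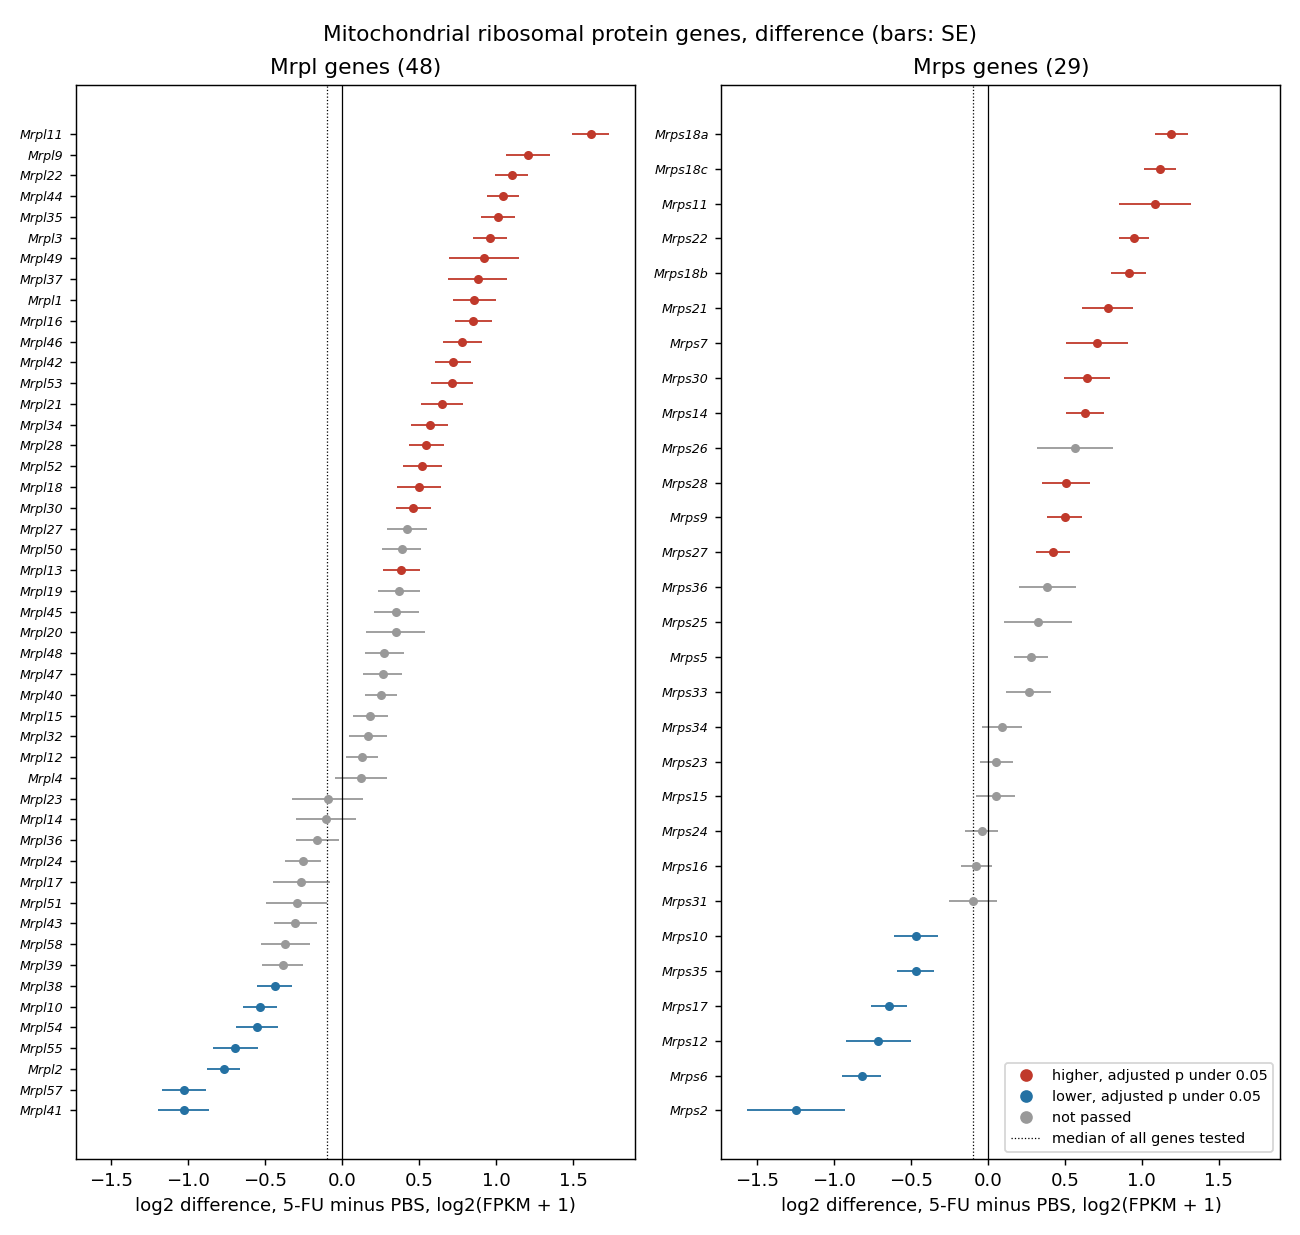
Log2 difference (5-FU minus PBS, log2(FPKM + 1) scale, 2 libraries per group) of each of the 48 Mrpl genes (left) and 29 Mrps genes (right), with the standard error as a bar. Red points rose and blue points fell at an adjusted p under 0.05; most points lie to the right of the dotted line, the median of all tested genes at -0.10.

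The number of calls moved with the library left out. Without 5-FU replicate 1 or without 5-FU replicate 2, where the spread comes from the PBS pair alone, 0 members passed the limma test in either direction (lowest adjusted p = 0.0508 and 0.0526). Few genes did then: 2.22% of all tested genes were higher and 2.04% lower without the first, and 2.52% and 2.57% without the second. The members' median log2 difference was 0.33 in the first case and 0.32 in the second, against -0.10 over all tested genes in each. The sign of the difference was that of the full data in 77 of 77 members in both, and without PBS replicate 1. Without PBS replicate 1 there were 46 higher and 19 lower (37.7% and 42.7% of all tested genes), and without PBS replicate 2 there were 42 and 19 (32.8% and 45.1%). The sign was then that of the full data in 72 of 77 members.

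Members have short genes, and gene length went with the direction of change in these libraries. The middle 50% of members spanned 4.47 to 12.5 kb, with a median of 7.89 kb against 20.02 kb for all tested genes. Of the 2139 other tested protein-coding genes in that middle range, 26.8% rose and 25.2% fell, with a median log2 difference of 0.06. Of all 10289 other tested protein-coding genes, 20.1% rose and 33.3% fell, with a median of -0.16. With the trend of the difference with genomic span removed the members' median was 0.22. With the trend with exonic length removed it was also 0.22, with 26 members higher and 15 lower, against 20.4% and 27.7% of all tested genes. Among the 77 members the rank correlation of the difference with span was 0.20 and with exonic length 0.0261, a description across genes that share the same 4 libraries. The sign with span is positive, so within the family the longer genes tended slightly to the larger rises. That is opposite to the direction seen over the other protein-coding genes.

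Among the Mrpl genes 20 rose, 7 fell and 21 did not pass, with a median log2 difference of 0.35. The largest log2 difference, on the log2(FPKM + 1) scale, was that of Mrpl11, whose protein forms the base of the stalk that recruits translation factors (ENSMUSG00000024902, GRCm38 chromosome 19, 4962147 to 4966999, plus strand). It measured 12.3 and 10.7 FPKM in the PBS libraries and 36.9 and 37.7 FPKM in the 5-FU libraries. Both 5-FU values lay far above both PBS values, a 3.23-fold difference (11.5 ± 1.12 FPKM in PBS and 37.3 ± 0.544 FPKM in 5-FU, SD with n = 2 libraries in each; log2 difference 1.61 ± 0.122 SE, limma adjusted p = 0.00277). Mrpl9 (chromosome 3, 94443318 to 94451130), the counterpart of bacterial L9, went from 28.3 and 22.7 to 58.5 and 61.3 FPKM, 2.35-fold higher (log2 difference 1.21 ± 0.144 SE, limma adjusted p = 0.00485).

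Mrpl22, whose protein lines the exit tunnel for the nascent chain (chromosome 11, 58171661 to 58179565), went from 37.6 and 41.8 to 85.7 and 86.7 FPKM. It was 2.17-fold higher (adjusted p = 0.00372) and moved from rank 14 to rank 4 of the 77. Mrpl44, a mitochondria-specific protein related to ribonuclease III (chromosome 1, 79776018 to 79781445), went from 20.1 and 20.7 to 43.3 and 42.9 FPKM (2.12-fold, adjusted p = 0.00367). In these genes, as in Mrpl35 (11.1 and 10.9 to 23.0 and 23.5 FPKM, 2.11-fold) and Mrpl3, a conserved protein near the catalytic core (15.1 and 14.1 to 29.3 and 29.4 FPKM, 2.01-fold), the libraries of a group differed far less than the groups did. Mrpl49 and Mrpl37, both particular to mitochondria, rose 1.88-fold and 1.87-fold, but their PBS libraries were wide apart (38.4 and 24.8, and 17.3 and 12.1 FPKM) and both calls ended with no filter on low values (adjusted p = 0.0895 and 0.0648). Of 12 alternative settings that keep all 4 libraries, the call of Mrpl49 held in 10 and that of Mrpl37 in 11. The other Mrpl genes that rose include Mrpl1, Mrpl13, Mrpl16, Mrpl18, Mrpl21, Mrpl28 and Mrpl30, between 1.34-fold (Mrpl13) and 1.92-fold (Mrpl1). The calls of Mrpl1, Mrpl16 and Mrpl21 held in all 12 of those settings and that of Mrpl18 in 7.

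The 7 Mrpl genes that fell were Mrpl41, Mrpl57, Mrpl2, Mrpl55, Mrpl54, Mrpl10 and Mrpl38. Mrpl41 (chromosome 2, 24974117 to 24975098), a mitochondria-specific member, went from 35.9 and 27.0 to 14.9 and 14.7 FPKM, 2.13-fold lower (log2 difference -1.03 ± 0.168 SE, limma adjusted p = 0.00902). Mrpl57 (chromosome 14, 57826234 to 57829296), also mitochondria-specific, went from 12.9 and 11.02 to 5.61 and 5.10 FPKM, 2.23-fold lower (adjusted p = 0.00629). Neither gene's groups overlapped. Mrpl2, whose bacterial counterpart lies beside the peptidyl transferase centre, was 1.73-fold lower (44.6 and 48.5 to 27.3 and 26.5 FPKM, adjusted p = 0.00646). It was among the 10 highest members in PBS (rank 8) and stood at rank 35 in 5-FU. Mrpl55, the counterpart of bacterial L31, was 1.69-fold lower, and its call ended with quantile normalization (adjusted p = 0.06). Mrpl38, a protein of the central protuberance, fell by 0.44 log2, a call that held in 10 of the 12 settings.

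**Figure D2:**
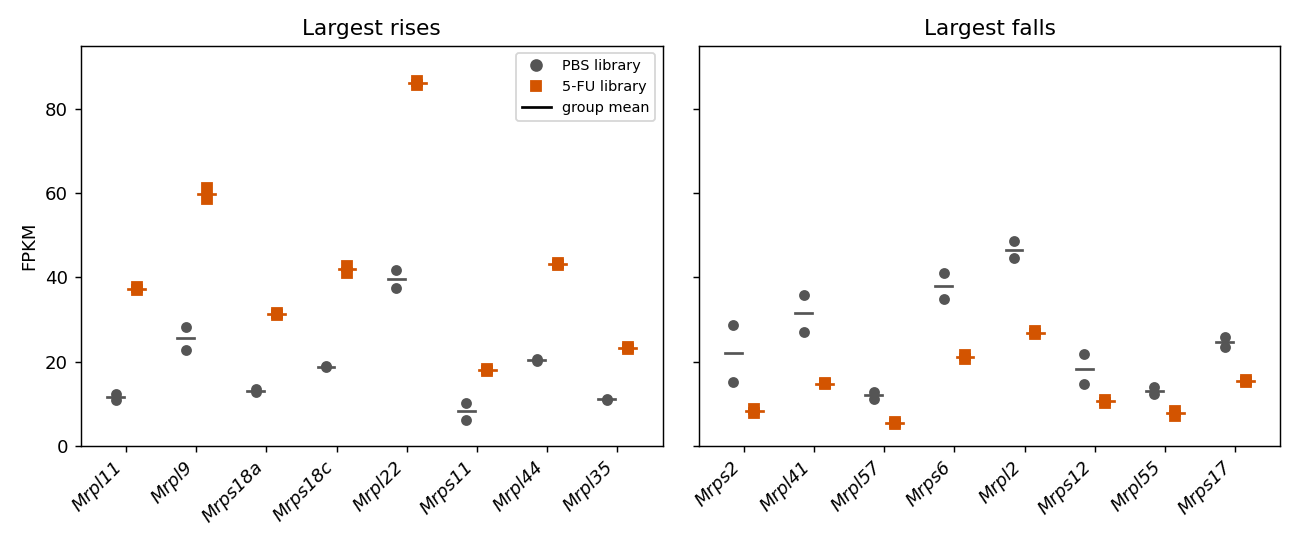
FPKM (linear axis from 0) in each PBS library (circles) and each 5-FU library (squares) for the 8 members with the largest rises and the 8 with the largest falls by log2 difference; short lines are group means. The 5-FU pairs sit close together, and the PBS pair is widest for Mrps2, at 28.8 and 15.05 FPKM.

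Among the Mrps genes 12 rose, 6 fell and 11 did not pass, with a median log2 difference of 0.33. The family holds 3 relatives of bacterial S18, and all 3 rose, beside 22.1% of all tested genes. Mrps18a (chromosome 17, 46110986 to 46128910) went from 12.9 and 13.4 to 31.0 and 31.5 FPKM, 2.38-fold higher (log2 difference 1.19 ± 0.107 SE, limma adjusted p = 0.00327). Despite its name, its protein is found in the large subunit, as is that of Mrps30. Mrps18c (chromosome 5, 100798627 to 100804471), which takes the place of bacterial S18 in the small subunit, went from 18.6 and 18.8 to 41.1 and 42.6 FPKM (2.24-fold, adjusted p = 0.00339). Mrps18b (chromosome 17, 35910379 to 35916389) went from 14.5 and 13.3 to 27.2 and 27.0 FPKM (1.95-fold, adjusted p = 0.00502). The sum of the 3 was 46.0 and 45.5 FPKM in PBS and 99.4 and 101.2 FPKM in 5-FU.

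Mrps22, a mitochondria-specific small subunit protein (chromosome 9, 98588730 to 98601660), went from 37.97 and 37.9 to 72.8 and 75.5 FPKM, 1.96-fold higher (adjusted p = 0.00393), and from rank 16 to rank 6. Mrps11, the counterpart of bacterial S11 (chromosome 7, 78783119 to 78792989), went from 10.1 and 6.23 to 18.2 and 17.8 FPKM (2.21-fold, adjusted p = 0.0183; 0.0667 with no filter on low values). Its gene overlaps that of Mrpl46 (chromosome 7, 78775236 to 78783531), which lies on the opposite strand and rose 1.77-fold (12.2 and 14.2 to 23.5 and 23.2 FPKM). Mrps21, Mrps7 and Mrps30 rose 1.73-, 1.66- and 1.58-fold. Their calls held in 10, 8 and 10 of the 12 settings (adjusted p up to 0.145, 0.104 and 0.0618). Mrps28, related to bacterial S1, went from 24.9 and 31.1 to 37.5 and 42.7 FPKM at adjusted p = 0.0476, a call that held in 6 of those 12 settings. Mrps14, Mrps9 and Mrps27 also rose, by 1.60-, 1.43- and 1.36-fold.

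The 6 Mrps genes that fell were Mrps2, Mrps6, Mrps12, Mrps17, Mrps35 and Mrps10, and all but Mrps35 have bacterial counterparts. Mrps2 (chromosome 2, 28468066 to 28471178) had the largest fall of all members, by 1.25 ± 0.317 SE on the log2 scale, from 28.8 and 15.05 to 8.67 and 7.79 FPKM (2.66-fold lower, limma adjusted p = 0.0293). The groups did not overlap, but the gap between the PBS libraries was wider than that from the lower of them to the 5-FU libraries, and the call ended with no filter on low values (0.0991). Mrps6 (chromosome 16, 92058270 to 92112227) was 1.81-fold lower, at 34.9 and 41.0 FPKM in PBS and 20.6 and 21.4 in 5-FU (adjusted p = 0.00803). The expressed gene Slc5a3 overlaps it on the same strand, so its reads may be shared. Mrps12, a protein of the decoding centre, was 1.73-fold lower (21.8 and 14.6 to 10.9 and 10.3 FPKM, adjusted p = 0.0451, and up to 0.118 over those settings). Mrps17 was 1.60-fold lower (adjusted p = 0.012), and Mrps35 and Mrps10 fell by 0.47 and 0.46 log2, with calls that held in 8 and 6 of the 12 settings.

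The members were also counted by origin and subunit, beside the 22.1% higher and 31.2% lower of all tested genes. Of 29 large subunit proteins with a bacterial counterpart, 13 rose (44.8%) and 3 fell (10.3%), with a median log2 difference of 0.37. Of 20 particular to mitochondria 8 rose and 4 fell (0.31). Of 16 small subunit proteins with a bacterial counterpart, 7 rose and 5 fell (0.17), and of 9 particular to mitochondria 2 rose (22.2%, as over all tested genes) and 1 fell (11.1%), with a median of 0.27. Whether these groups differ was not tested. The remaining members are Mrps18a, Mrps18b and Mrps36, whose product is now known as an adaptor of the 2-oxoglutarate dehydrogenase complex. Mrps36 measured 19.5 and 13.9 FPKM in PBS and 21.9 and 21.8 in 5-FU (adjusted p = 0.14).

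Neighbours within the ribosome did not all go the same way. Of the 5 genes of the L7/L12 stalk, Mrpl11 and Mrpl53 rose (40%), Mrpl10 and Mrpl54 fell (40%), and Mrpl12 did not pass. Over all tested genes 22.1% rose and 31.2% fell. Mrpl10, which anchors the stalk, fell from 35.3 and 34.0 to 24.7 and 22.7 FPKM (1.46-fold lower, adjusted p = 0.017), and Mrpl54 from 45.3 and 37.2 to 28.2 and 27.3 (1.49-fold lower, adjusted p = 0.0275; 0.0641 with no filter on low values). Mrpl12, the L7/L12 protein itself, measured 51.4 and 48.9 FPKM in PBS and 56.4 and 53.7 in 5-FU (adjusted p = 0.328). Mrpl53 was counted among the genes that rose, yet it entered the test only through the 5-FU group, where it reached 1.24 and 1.06 FPKM against 0.395 and 0.229 in PBS. Those values rest on about 20.4 and 17.2 reads in 5-FU and 12.9 and 7.52 in PBS by the estimated depths. The expressed gene Gm42688 overlaps Mrpl53 on the same strand, so how its reads were assigned may bear on its low level. The ratio of means of Mrpl53 was 3.68, while its log2 difference was 0.71, since adding 1 before the logarithm shrinks differences at low levels.

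Of 6 central protuberance genes, 2 rose (Mrpl46 and Mrpl18, 33.3%) and 1 fell (Mrpl38, 16.7%), against 22.1% and 31.2% of all tested genes. The release factor homologue Mrpl58, which frees stalled chains, measured 7.15 and 8.80 FPKM in PBS and 6.27 and 5.60 in 5-FU (adjusted p = 0.109). Of 6 exit tunnel genes only Mrpl22 passed, as a rise (16.7%, against those same 22.1% of all tested genes). Mrpl45, which tethers the ribosome to the inner membrane, measured 37.6 and 46.6 FPKM in PBS and 55.5 and 52.1 in 5-FU (adjusted p = 0.0957). Both 5-FU values lay above both PBS values, as in 35.9% of all tested genes, but the difference did not pass the test.

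Levels are compared between genes in FPKM, which is scaled per length. Mrpl42, a mitochondria-specific large subunit protein, was the highest member in every library (128.1 and 114.3 FPKM in PBS, 206.6 and 194.5 in 5-FU) and rose 1.65-fold (adjusted p = 0.00857). Mrpl34 was next, at 80.6 and 69.9 FPKM in PBS and 110.4 and 113.4 in 5-FU. It rose 1.49-fold (adjusted p = 0.017), a call that ended with quantile normalization or with either length trend removed. Mrpl52 followed with 72.4 and 62.6 FPKM in PBS and 93.5 and 101.0 in 5-FU (adjusted p = 0.0242, up to 0.233). Mrpl20, at 74.0 and 51.9 FPKM in PBS and 80.0 and 78.4 in 5-FU, did not pass (adjusted p = 0.186), and in PBS its range took in the values of Mrpl52, so those neighbours in the order cannot be separated. Besides Mrpl53, the lowest means over all 4 libraries were those of Mrps34 (5.85 and 5.38 FPKM in PBS, 6.12 and 5.97 in 5-FU) and Mrps10 (6.37 and 7.55, and 4.67 and 4.84). Within a group the order at the low end differed: in PBS Mrps25 came next above Mrpl53, and in 5-FU Mrps10, Mrpl57 and Mrpl58 lay below Mrps34.

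Across the 77 members the group means on a log2 scale had a Pearson correlation of 0.852 between PBS and 5-FU, a description over genes that keep their lengths in both. The standard deviation of log2 FPKM over the members was 1.19 and 1.25 in PBS and 1.25 and 1.26 in 5-FU. More than 20 places were moved by 11 members. Mrpl11 (59 to 24), Mrps18a (53 to 28), Mrpl9 (30 to 9), Mrpl44 (39 to 18) and Mrps18c (40 to 19) moved up. Mrpl41 (22 to 57), Mrps2 (36 to 66), Mrps6 (15 to 44), Mrpl2 (8 to 35), Mrps17 (31 to 54) and Mrps12 (41 to 63) moved down.

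**Figure D3:**
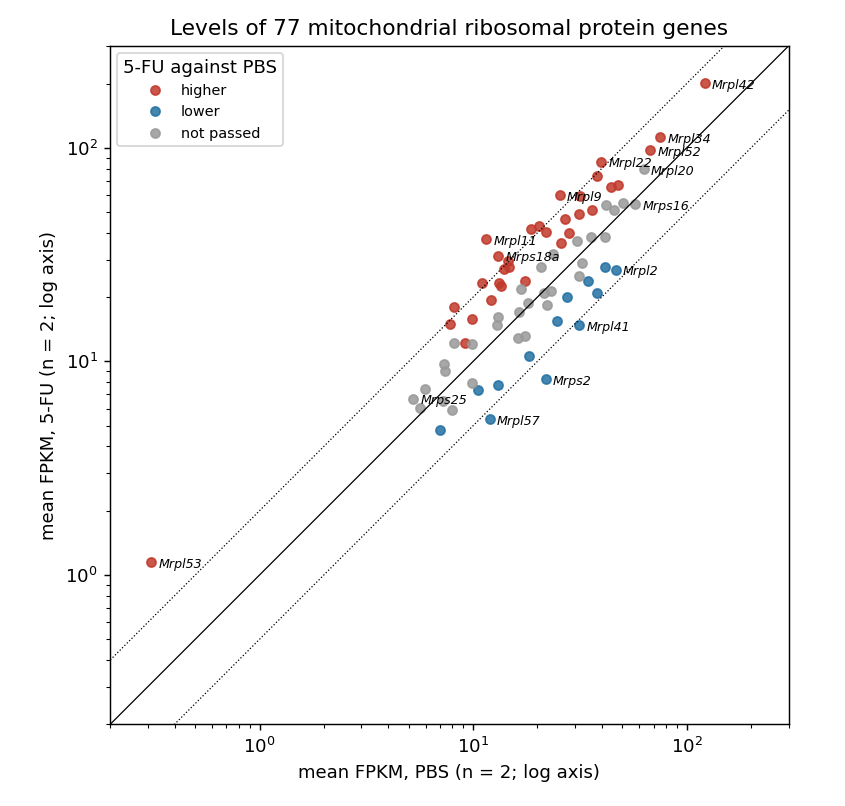
Mean FPKM of each of the 77 members in 5-FU against PBS (n = 2 per group, both axes logarithmic); the solid line marks equal levels and the dotted lines 2-fold differences. Mrpl42 is at the top in both groups, Mrpl53 lies alone at the bottom, and Mrpl11 stands farthest above the line among the rest.

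Shared promoters and overlaps bear on single values. The labels do not say whether reads were counted by strand, and 19 members overlap an expressed gene on the opposite strand, Mrps11, Mrpl46, Mrpl44, Mrpl49, Mrps7, Mrpl21, Mrpl18 and Mrpl13 among those that rose. Without the members that overlap an expressed gene or begin within 5 kb after the end of one on the same strand, 50 remained. Of these 21 rose (42%) and 11 fell (22%), against 41.6% and 16.9% of all 77 members and 22.1% and 31.2% of all tested genes. Of the 23 members that overlap an expressed gene on either strand, 9 rose (39.1%) and 1 fell (4.35%). An expressed gene begins on the opposite strand within 1 kb of the start in 30 members, forming 29 pairs. Both genes of the pair were called in 6 pairs. In 3 both rose (Mrpl46 with Mrps11, Mrpl30 with Mitd1, Mrps18b with Ppp1r10), in 1 both fell (Mrpl54 with Apba3), and in 2 they went opposite ways (Mrpl13 rose and Mtbp fell, Mrpl57 fell and Ska3 rose). These pairs were picked out after their values were seen.

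In the promoter windows, the YY1 motif was held by 8 of the 30 members that rose, 1 of the 10 that fell and 3 of the 28 that did not pass. Those are 26.7%, 10% and 10.7%, against 5.74% of the tested genes with a window. In 7 of those 8 it began 11 to 27 bases after the start, as in the Mrps18a sequence above. The ETS motif was in 6, 0 and 5 of these members, and the NRF1 motif in 5, 1 and 7. Of the tested genes with a window, 10.3% held the ETS motif and 12.4% the NRF1 motif. These are counts of letters, and the differences between them were not tested.

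Other parts of the machinery were examined through lists made from textbook knowledge. Of 5 mitoribosomal proteins that carry other names, 2 rose (40%) and 1 fell (20%), against 22.1% and 31.2% of all tested genes. Aurkaip1, a small subunit protein, went from 29.8 and 29.8 to 53.6 and 49.9 FPKM (adjusted p = 0.00596), and Gadd45gip1, a large subunit protein, from 24.1 and 23.0 to 33.9 and 30.3 (adjusted p = 0.0349). Dap3, a GTP-binding protein of the small subunit, fell from 23.5 and 27.5 to 17.9 and 18.1 FPKM (adjusted p = 0.0333).

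Of 26 tested assembly factors 6 rose (23.1%) and 3 fell (11.5%), with a median log2 difference of 0.17. Over all tested genes those shares were 22.1% and 31.2%, so the share that rose was near that of all genes. Fastkd2, an RNA-binding protein needed for the large ribosomal RNA, went from 5.84 and 5.34 to 18.8 and 20.4 FPKM (3.51-fold, adjusted p = 0.00278). Mettl17 rose 2.78-fold and Rcc1l 2.06-fold. The GTPase gene Mtg1 went from 4.10 and 4.50 to 1.03 and 1.15 FPKM (3.96-fold lower, adjusted p = 0.00368), and the pseudouridine synthase gene Rpusd3 and Ngrn were 3.08- and 2.45-fold lower. Of 14 tested translation factors 2 rose (14.3%) and 3 fell (21.4%), with a median of 0.03. The elongation factor gene Tsfm rose 1.67-fold and the RNA-binding protein gene Slirp 1.63-fold, while Guf1, Mtif2 and Gfm2 were 2.79-, 1.76- and 1.61-fold lower.

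Of 12 tested regulators of nuclear genes for mitochondrial proteins, 3 rose (25%) and 4 fell (33.3%), near the 22.1% and 31.2% of all tested genes. Pprc1, a coactivator related to PGC-1, went from 19.0 and 9.35 to 31.1 and 28.8 FPKM (adjusted p = 0.0457), and the mitochondrial transcription factor genes Tfb2m and Tfam rose by 0.61 and 0.55 log2. Myc, a transcription factor known for driving ribosome and mitochondrial genes, went from 27.3 and 26.2 to 9.92 and 10.2 FPKM (2.66-fold lower, adjusted p = 0.003). Esrra, a nuclear receptor gene, and Ppargc1b, its coactivator of the PGC-1 family, fell by 1.10 and 0.99 log2. Ppargc1b entered the test only through the PBS group, at 2.37 and 2.397 FPKM against 0.782 and 0.632 in 5-FU. Of the factors whose motifs were searched, Nrf1 measured 5.83 and 5.15 FPKM in PBS and 4.72 and 5.11 in 5-FU (adjusted p = 0.45), Gabpa 22.0 and 23.6 and 27.8 and 30.5 (0.0627), and Yy1 46.4 and 48.1 and 39.0 and 44.6 (0.265).

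Both ribosomal RNAs that these proteins bind in the mitochondrion were higher. The small ribosomal RNA mt-Rnr1 measured 797.1 and 999.2 FPKM in PBS and 2698 and 2655 in 5-FU (log2 difference 1.58, adjusted p = 0.00386), and mt-Rnr2 180.2 and 203.6 and 2247 and 2309 (log2 difference 3.57, adjusted p = 0.0027). All libraries were made by polyA selection, so these values are of the captured RNA. Of 12 tested mitochondrially encoded protein genes 3 rose (mt-Nd4l, mt-Nd5 and mt-Nd4, all subunits of complex I) and 1 fell (mt-Atp6, an ATP synthase subunit). These shares were 25% and 8.33%, against 22.1% and 31.2% of all tested genes. Of the risers, mt-Nd4l entered the test only through the 5-FU group, at 3.07 and 2.61 FPKM against 0.977 and 0.405 in PBS. Levels of mt-Atp6 were low, at 7.57 and 7.48 FPKM in PBS and 3.74 and 3.77 in 5-FU, while mt-Co1 lay between 5089 and 8839 FPKM. It shares a single stretch of the mitochondrial genome (bases 7013 to 10173) with mt-Co2, mt-Atp8, mt-Co3, mt-Nd3 and mt-Nd4l. All of these stayed at or below 10.2 FPKM in every library, while mt-Nd4, next to mt-Nd4l, lay between 702.4 and 1157 FPKM. The cause of this gap was not tested, and the calls of mt-Nd4l and mt-Atp6 rest on these low values. The cytosolic ribosomal protein genes, named by the same kind of rule, held 26 that rose (32.9%) and 1 that fell (1.27%) among 79 tested. Their median log2 difference was 0.39, beside the 0.35 of the mitochondrial family. Whether the families differ was not tested.

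**Figure D4:**
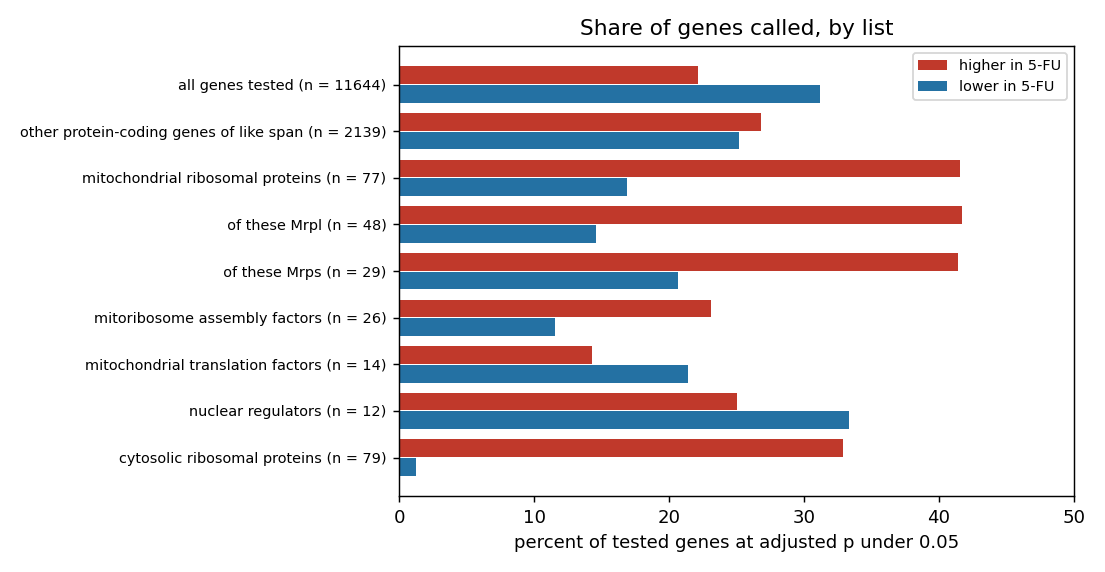
Percent of the tested genes of each list that were higher (red) or lower (blue) in 5-FU at an adjusted p under 0.05; n is the number of genes tested. The mitochondrial ribosomal protein genes have 41.6% higher and 16.9% lower, against 22.1% and 31.2% of all genes tested.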

How the data were processed

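RNA was extracted with TriZol and libraries were prepared from polyadenylated RNA, per the labels' protocols. The authors deposited FPKM values per gene and library. STAR 2.4.1a, Picard 2.9.0 and GRCm38 are named in the submitters' processing notes, without a role. The read counter, its annotation and its strand option were not given in the sources used here. Gene IDs were matched to GENCODE M21 on GRCm38 (36379 of 36445, all 77 members), which supplied coordinates and lengths.

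The 5-FU and PBS libraries were compared on log2(FPKM + 1) with limma 3.58.1 in R 4.3.3 (lmFit, eBayes with intensity trend). The test was two-sided and covered 11644 genes that reached 1 FPKM in 2 or more of the 4 libraries, with Benjamini-Hochberg adjustment over all of them and a threshold of 0.05. Folds are ratios of mean FPKM. The fit was tested on simulated data. The labels do not say that replicates were separate cultures, so the p-values rest on a spread that may be technical and reach no further than these samples. With 2 libraries in each group the smallest exact two-sided permutation p is 0.333, so no such test was run. Library depth was estimated from the smallest FPKM steps; 63.1% to 65.1% of values below 100 reads then lay within 0.02 of a whole read. Intervals and floors from such reads would cover counting error only.

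Members and lists were chosen with earlier results of these data known. Genes named were the 8 largest changes past the threshold per name (Mrpl or Mrps) and direction, the 5 highest and 3 lowest members, a fixed set of members of structural interest, and up to 3 genes per direction of each other list. Further names were chosen after their values were seen. Alternatives varied the pseudocount, filter, scaling, eBayes settings, replicate block, length trends and libraries.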

Additional observations from a re-analysis of the deposited data

How the results depend on the processing

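The median log2 difference of the members kept its sign under every alternative run. It was 0.45 with median-ratio scaling, 0.40 with quantile normalization, 0.25 with the FPKM rescaled without mitochondrially encoded and cytosolic ribosomal protein genes, 0.22 with the exonic length trend removed and 0.22 with the genomic span trend removed (the last chosen after seeing the data). It ranged from 0.27 to 0.33 when each library was left out in turn. Quantile normalization moved the median of all tested genes by 0.12, and relative to it the members' median was 0.38, against 0.45 in the data as deposited. Median-ratio scaling moved the median of all tested genes by 0.09 and the rescaled FPKM by -0.09. The members' median relative to all tested genes was then 0.46 and 0.44. With either length trend removed that relative median was 0.30. The cause of these shifts was not tested. Leaving out each library in turn gave from 0 to 46 members higher and from 0 to 19 lower, with 0 in both directions when a 5-FU library was left out. Under the 12 settings that keep all 4 libraries there were 22 to 37 higher and 9 to 15 lower, and 16 of the 32 rises and 6 of the 13 falls passed in all 12. The calls over all genes moved with the setting as well. With no filter on low values 22 members were higher and 9 lower, beside 2368 and 2836 of all 23640 genes. With median-ratio scaling 37 members were higher and 10 lower, beside 3081 and 3283 of all 11644 genes. With replicate number as a block 29 members were higher and 10 lower, beside 2484 and 3553 of all 11644 genes. Same-numbered libraries did not deviate together over all tested genes (correlation of deviations -0.01, and 0.25 over the 77 members). The groups share only 2 numbers and the labels name no shared culture or day, so the numbers are not taken as pairs. Mrpl53, at about 7.52 to 20.4 reads, is the member whose value depth limits most.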
